A study of Mus musculus with 72 samples.

Results

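Kdm5c and Kdm6a are X-linked genes for histone demethylases, described here in every deposited count file of a time course of X chromosome inactivation. They were chosen by name, as genes labelled as escaping from the inactive X, with earlier results of these data known. They are 2 of the 22556 genes in the count files and 2 of the 908 that are X-linked. Kdm6a lies at chrX:18162666-18279358 and Kdm5c at chrX:152233226-152279099, both on the plus strand of mm10. Kdm6a lies before Xist in the coordinates of the chromosome and Kdm5c past it. For each gene the report gives the allelic ratio Xi/(Xi+Xa), here called the Xi share, which is the part of the allele-assigned fragments that came from the inactive X (Xi) rather than the active X (Xa).

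X inactivation equalizes X-linked dosage between XX and XY cells: Xist RNA coats the chromosome it is made from and most genes on it are silenced. A minority escape, meaning that some transcription from the silenced chromosome persists. Kdm5c removes methyl groups from lysine 4 of histone H3, a mark of active promoters and enhancers. Kdm6a, also called UTX, removes methyl groups from lysine 27 of histone H3, the mark laid down by Polycomb repressive complex 2 (PRC2), and is a subunit of the MLL3/MLL4 complexes that methylate lysine 4. Both genes have relatives on the Y chromosome, Kdm5d and Uty, and both are known as escape genes in mouse and human tissues. SmcHD1 is a chromosomal protein of the condensin and cohesin family that is recruited to the Xi and is known for its part in keeping many Xi genes silent.

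The study sequenced chromatin-associated RNA (ChrRNA-seq), RNA that stays bound to chromatin and is mostly newly made, over Xist induction and differentiation of mouse XX embryonic stem cells (mESCs) into neural precursor cells (NPCs). Both parental lines are female hybrids of Dom/129S and Cast chromosomes, each a single clone, in which a TetOn promoter replaces the endogenous Xist promoter on 1 allele. That allele is Dom/129S in iXist-ChrX_Dom and Cast in iXist-ChrX_Cast, so the Xi is the Dom X in the former and the Cast X in the latter. Cells were kept in doxycycline without a break from the start of differentiation, and the day is the time in doxycycline. Wild type (WT) cells were the parental lines, and SmcHD1 knockout (KO) cells were clone A3 of iXist-ChrX_Dom and clones D5 and G6 of iXist-ChrX_Cast, each again a single clone, made by CRISPR-Cas9 mutation of the gene; per the study's methods they make no SmcHD1 protein. iXist-ChrX_Dom had 2 WT and 2 A3 replicates at each of days 2, 3, 5 and 7 and 1 of each at days 15, 21, 35 and 52. In iXist-ChrX_Cast, days 2, 3, 5 and 7 had 2 or 3 WT replicates and 2 for both D5 and G6, and days 15, 21 and 35 a single replicate of WT, D5 and G6. Uninduced mESCs (ES) were of KO clones only, 2 replicates of A3, 2 of D5 and 1 of G6, and uninduced WT cells were not analysed here. The libraries up to day 7 are labelled as cells on the way from mESC to NPC and the later ones as NPC.

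The 26 libraries of iXist-ChrX_Dom held 9344054 to 31216487 fragments each, and the 46 of iXist-ChrX_Cast held 13211298 to 31107643. Of these, 7 pairs of libraries labelled R1 and R2 of 1 replicate were counted once, which left 65 replicates; the labels do not say what R1 and R2 mean, and they may be separate experiments. Taken as separate replicates, they changed no call on the Xi share of either gene. Between R1 and R2 the Xi share of Kdm6a differed by 0.00393 to 0.0830, and Fisher's exact test on the allelic fragments gave a p below 0.05 in 6 of the 7 pairs, so counting error alone does not describe the spread between libraries. The WT libraries of iXist-ChrX_Dom were of 2 kinds: the Cast share of allelic fragments past 140 Mb of chromosome 6 was 0.487 to 0.505 in replicate 1 of days 2 to 7 and at day 15, and 0.362 to 0.413 in replicate 2 and at days 21, 35 and 52. The summed level of 5 mESC markers (Pou5f1, Nanog, Zfp42, Esrrb, Klf2) fell from 773 to 1155 RPM (fragments-per-million of the library) in ES to 1.30 to 139 RPM at day 15 and later. Of the 5 neural precursor markers, Nes had 24.6 to 298 RPM and Vim 88.5 to 732 RPM at those days. In ES they had 6.29 to 20.9 and 14.5 to 30.7 RPM. Pax6 went the other way, with a median of 4.74 RPM in ES and of 1.49 and 0.428 RPM in late WT and KO, where it did not pass 9.39 RPM. Fabp7 rose from at most 0.0996 RPM in ES to medians of 3.53 and 1.49 RPM in late WT and KO, and did not pass 43.3 RPM. Sox1 had no fragment in any of the 72 libraries, at any stage, so it cannot tell the stages apart. The NPC label thus rests on part of its markers. The 4 fibroblast markers (Col1a1, Col1a2, Dcn, Thy1) summed to 58.9 to 3923 RPM at day 15 and later, against 4.11 to 18.5 RPM in ES. Col1a1 and Col1a2 weighed most in this sum, with up to 2674 and 1560 RPM. Thy1 went the other way, with a median of 1.44 RPM in ES and of 0.353 and 0.281 RPM in late WT and KO. Transcripts of Smchd1 itself were present in KO at these days (217 to 537 RPM, against 360 to 648 RPM in WT), so its RNA level does not check the KO label.

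The promoters of the 2 genes are shown because CpG dinucleotides, in capitals, are where DNA methylation is laid down when Xi promoters are silenced; methylation was not among the data analysed here. The 250 bases before each RefSeq start (plus strand of GRCm38.p6, the assembly named mm10) span chrX:18162325-18162574 for Kdm6a and chrX:152232977-152233226 for Kdm5c. The Kdm6a window ends before the start of the counted gene (18162666), so the 2 starts differ. The Kdm5c window ends at the start of the counted gene (152233226).
Kdm6a: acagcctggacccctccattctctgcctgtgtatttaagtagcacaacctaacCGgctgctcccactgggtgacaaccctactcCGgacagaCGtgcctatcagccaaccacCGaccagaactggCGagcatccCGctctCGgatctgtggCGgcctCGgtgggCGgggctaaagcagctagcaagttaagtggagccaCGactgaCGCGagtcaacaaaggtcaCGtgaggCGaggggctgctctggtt
Kdm5c: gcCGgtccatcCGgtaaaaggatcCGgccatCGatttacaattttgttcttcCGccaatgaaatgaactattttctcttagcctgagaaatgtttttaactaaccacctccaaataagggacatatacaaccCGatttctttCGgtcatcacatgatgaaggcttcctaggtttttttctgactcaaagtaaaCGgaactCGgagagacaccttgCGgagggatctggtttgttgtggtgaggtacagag
Kdm6a held 15 CpGs in this window and 59.6% G and C. Kdm5c held 10 CpGs and 43.6% G and C. Of 32851 RefSeq promoter windows of the same length, 27.3% held at least 15 CpGs and 37.8% at least 10, with a median of 6.

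Only 1 of the 2 genes could be read by allele in iXist-ChrX_Dom. In uninduced A3 cells, where both X chromosomes are active, the Xi share of Kdm6a was 0.532 and 0.538, near equal use of the alleles. That of Kdm5c was 0.00351 and 0.00396 in the same libraries. The whole stretch of the X past Xist behaved like Kdm5c: its 155 genes with at least 60 allelic fragments had a median Xi share of 0.00597 in uninduced A3 (7 of them above 0.1), whereas the 240 genes before Xist had a median of 0.510. In uninduced iXist-ChrX_Cast KO cells the medians were 0.45 over 264 genes before Xist and 0.415 over 172 past it, and the share was 0.445 ± 0.0202 for Kdm6a and 0.414 ± 0.0330 for Kdm5c (mean ± SD, n = 3). Past Xist, iXist-ChrX_Dom thus gave fragments of nearly only 1 parental allele before induction. Total RNA of Kdm5c in ES was alike in the 2 lines (means of 5.50 and 5.23 RPKM, a unit defined with the totals below). The study names a recombination event in this line as a reason why some genes could not be evaluated by allele. The authors' list of 246 informative genes of this line leaves Kdm5c out, and its share there (0 to 0.0114 over the 26 libraries) is no measure of silencing. Where the count of Xi fragments was 0, in WT replicate 1 of day 7 and A3 of day 15, 3 fragments would have allowed a share of 0.00231 and 0.00218. Everything on the Xi share of Kdm5c below is from iXist-ChrX_Cast, whose list of 399 genes holds both genes.

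Kdm6a lost Xi expression slowly in WT cells and by the last day was close to silent. In iXist-ChrX_Dom WT its Xi share was 0.488 and 0.462 at day 2, 0.444 and 0.410 at day 3, 0.293 and 0.267 at day 5 and 0.134 and 0.158 at day 7, replicate 1 first. It then was 0.0620 at day 15, 0.102 at day 21, 0.0284 at day 35 and 0.00659 at day 52. The late values did not overlap those of days 5 and 7, which held for 34.3% of the 245 genes compared. Replicate 1 and day 15, the libraries with an even chromosome 6, alone gave 0.488, 0.444, 0.293, 0.134 and 0.0620. In bulk RNA, fewer cells that express the Xi allele and less Xi RNA in each cell cannot be told apart.

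In iXist-ChrX_Cast WT, where the Xi carries the other parental allele, the course was similar. The Kdm6a share was 0.414 and 0.429 at day 2, 0.370, 0.394 and 0.362 at day 3, 0.203, 0.301 and 0.252 at day 5 and 0.145, 0.178 and 0.162 at day 7. It was 0.0874 at day 15, 0.0397 at day 21 and 0.00819 at day 35. Here too all late replicates lay below all of days 5 and 7, as in 35.5% of 397 genes. Late WT shares amounted to 10.1 ± 8.95% of the uninduced share in iXist-ChrX_Cast (n = 3) and 9.29 ± 7.78% in iXist-ChrX_Dom (n = 4). The uninduced share is that of the KO clones of the line. Each n counts successive days, so the SD includes the change over time. The label of an escape gene, which refers to transcription that persists, did not go with the end of the WT course. By Xi share Kdm6a ranked 3rd to 13th at days 2 and 3. At days 15, 21 and 35 of iXist-ChrX_Dom it ranked 24th, 16th and 68th, and at days 15 and 21 of iXist-ChrX_Cast 16th and 28th. On the last day of each line it ranked 84th of 245 and 107th of 398 genes. The median gene of the list stood at 0.00205 and 0.00157 on those last days.

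**Figure D1:**
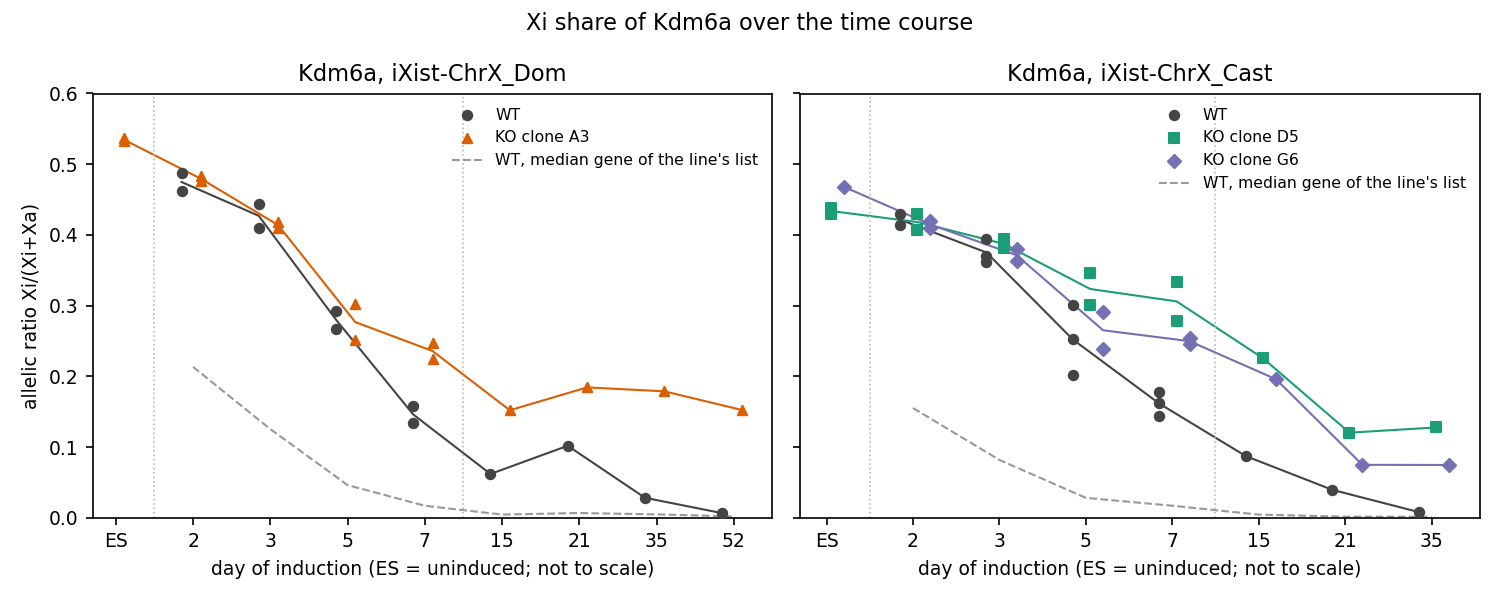
Xi share of Kdm6a (y axis, allelic ratio from 0 to 0.6) by day of induction (x axis, categories), for iXist-ChrX_Dom on the left and iXist-ChrX_Cast on the right. Points are replicates, coloured by clone, lines join the means of each day, and the dashed line is the mean over the WT replicates of a day of the median gene in the line's list. WT ends at 0.00659 and 0.00819, while A3 stays between 0.152 and 0.184 from day 15 and D5 and G6 end at 0.128 and 0.0747.

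KO cells followed a similar early course and then kept more Kdm6a expression from the Xi. In A3 the share was 0.476 and 0.483 at day 2, 0.419 and 0.409 at day 3, 0.252 and 0.302 at day 5, and 0.225 and 0.247 at day 7. At the late days it lay lower and showed no further decline, with 0.152 at day 15, 0.184 at day 21, 0.179 at day 35 and 0.153 at day 52. All 4 lay above all 4 late WT replicates, a separation seen in 26.5% of the 238 genes compared.

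In the iXist-ChrX_Cast clones the share declined further. In ES it was 0.438 and 0.429 in D5 and 0.468 in G6, and at days 2 and 3 it lay between 0.363 and 0.429 in both. D5 went from 0.301 and 0.346 at day 5 and 0.278 and 0.334 at day 7 to 0.226, 0.120 and 0.128 at days 15, 21 and 35. G6 went from 0.239 and 0.291 at day 5 and 0.245 and 0.254 at day 7 to 0.196, 0.0749 and 0.0747. Each of the 6 late KO replicates lay above WT of its day, as in 30.7% of 388 genes, but G6 at days 21 and 35 lay below WT of day 15. On average, late KO cells kept 30.7 ± 14% of the uninduced share in iXist-ChrX_Cast (n = 6) and 31.2 ± 3.19% in iXist-ChrX_Dom (n = 4).

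At the late days the Xi share of Kdm6a was higher in KO in both lines. At days 15 and later, KO exceeded WT by 0.117 in iXist-ChrX_Dom (SE 0.0234; means 0.167 and 0.0497, a ratio of 3.36) and by 0.0915 in iXist-ChrX_Cast (SE 0.0202; means 0.137 and 0.0451, a ratio of 3.03). With limma fitted over the gene list of each line, day as a factor and Benjamini-Hochberg adjustment, the adjusted p was 0.0990 in iXist-ChrX_Dom and 0.0462 in iXist-ChrX_Cast. Of the genes tested, 3.36% of 238 and 7.22% of 388 passed at 0.05, all of them higher in KO. Kdm6a was thus called in iXist-ChrX_Cast and not in iXist-ChrX_Dom. The call in iXist-ChrX_Cast was close to the threshold: leaving out 1 late replicate at a time, it was kept only without G6 of day 21 (0.108 was the largest and 0.0755 the smallest difference, adjusted p from 0.0436 to 0.236), and it was lost with D5 alone (0.113, adjusted p = 0.101) or G6 alone (0.0702, adjusted p = 0.211) as the KO. A test of the allelic counts themselves (edgeR, library as a block) called Kdm6a in both lines, with log2 odds ratios of 2.48 (adjusted p = 0.00150) and 2.12 (adjusted p = 3.65e-06).

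Because each late day has a single replicate per clone, the days stand in for replicates in these tests. When genotype labels were permuted within days (exact, two-sided), p was 0.125 for Kdm6a in iXist-ChrX_Dom and 0.0370 in iXist-ChrX_Cast, the smallest values that these designs allow. Over both lines, KO exceeded WT of the same day in 10 of 10 replicates and p was 0.00231, the smallest of 432 arrangements (0.0116 after Benjamini-Hochberg adjustment over the 5 comparisons of this kind). Every KO replicate lay above WT of the same day for 33.2% of 238 genes in iXist-ChrX_Dom and 30.7% of 388 in iXist-ChrX_Cast. Such a separation is thus not particular to Kdm6a, and how many genes show it in both lines was not counted.

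At days 2 and 3 no difference was detectable. KO minus WT was -0.0042 (SE 0.0204) in iXist-ChrX_Dom and 0.0001 (SE 0.0117) in iXist-ChrX_Cast, with adjusted p-values of 0.977 and 0.996, and no gene passed in either line (0.0%; 15 and 32 genes had an unadjusted p below 0.05). At days 5 and 7 it was 0.0431 (SE 0.0247) and 0.0793 (SE 0.0242), with adjusted p-values of 0.418 and 0.0953 against 7.32% and 0.501% of genes called. The change of the difference from days 2 and 3 to the late days was itself tested as an interaction. It was 0.121 (SE 0.0303, adjusted p = 0.0383) in iXist-ChrX_Dom, where 7.56% of genes passed, and 0.0915 (SE 0.0217, adjusted p = 0.00751) in iXist-ChrX_Cast, where 12.4% passed. The former call was lost in 12 of the 16 fits that left out a replicate (adjusted p up to 0.0926), and the latter only without WT of day 15 (0.0755, adjusted p = 0.0647). Measured from days 5 and 7 instead, the change was 0.0742 (adjusted p = 0.379) and 0.0122 (adjusted p = 0.961).

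Markers of other cells were set beside these late shares. The mESC markers summed to 4.15 to 139 RPM in WT and 1.30 to 39.8 RPM in KO, and KO was above WT of the same day in 3 of 10 replicates: D5 and G6 at day 15 (39.8 and 30.9 RPM, against 30.3 RPM in WT) and D5 at day 21 (5.14 against 4.15 RPM). Within WT, iXist-ChrX_Dom day 21 had both the highest sum (139 RPM) and the highest Kdm6a share (0.102). Fibroblast markers summed to 104, 90.3, 372 and 867 RPM at days 15, 21, 35 and 52 of iXist-ChrX_Dom WT and to 58.9, 683 and 3923 RPM at days 15, 21 and 35 of iXist-ChrX_Cast WT. The last day of each line, where Kdm6a was nearly silent in WT, thus had the highest fibroblast sum of that line's WT libraries, and within each line the Kdm6a share was lower in WT libraries with a higher sum. In KO the fibroblast sum ran from 67.2 to 3853 RPM and was above WT of the same day in 6 of 10 replicates. Neuron markers (Tubb3, Dcx, Map2) summed to 74.6 to 755 RPM in late WT and 77.8 to 1153 RPM in late KO. Their medians were 156 and 348 RPM. Primitive endoderm markers (Gata4, Gata6, Sox17) summed to 15.4 to 151 and 10.9 to 146 RPM. Astroglial markers (Gfap, Aqp4, Slc1a3) summed to 64.6 to 172 and 77.8 to 173 RPM. In ES these sums were 152 to 197, 6.66 to 21.8 and 123 to 206 RPM, in the same order. The part of remaining mESCs, of fibroblast-like cells or of these other cells in the Kdm6a shares was not tested. Xist took 1.82 to 4.96% of all fragments in late WT and 1.89 to 8.65% in late KO.

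Within each genotype, the Kdm6a share fell in every line between days 2 and 3 and days 5 and 7. The fall was -0.238 (SE 0.0407) in iXist-ChrX_Dom WT, -0.191 (SE 0.0356) in A3, -0.187 (SE 0.0320) in iXist-ChrX_Cast WT and -0.112 (SE 0.0212) in its KO clones, each called (largest adjusted p = 0.00168, limma). Most genes of the lists were called in these fits: 86.9% and 73.1% in WT and A3 of iXist-ChrX_Dom, all lower, and 88.2% and 89.7% in WT and KO of iXist-ChrX_Cast, of which 87.4% and 89.2% of the genes tested were lower. The later fall from days 5 and 7 was -0.163 and -0.162 in WT of the 2 lines (adjusted p = 0.136 and 0.0774), in fits that called 0.0% and 0.252% of genes (14 and 24 genes had an unadjusted p below 0.05). It was -0.0893 in A3 (adjusted p = 1, 0.0% called, 7 genes with an unadjusted p below 0.05) and -0.15 in the iXist-ChrX_Cast KO clones (SE 0.0229, adjusted p = 0.000176, 4.11% called and 2.31% lower). On the arcsine square root scale both WT falls passed (adjusted p = 0.0169 and 0.00383).

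The 2 lines, which silence different parental alleles, were also compared for Kdm6a in WT. Over days 2 to 7 the iXist-ChrX_Dom share exceeded that of iXist-ChrX_Cast by 0.0284 (permutation of the line within day, p = 0.0497). After division by each line's uninduced share the difference turned to -0.0589 (permutation p = 0.0253), so its direction depended on that scale. At days 15, 21 and 35 it was 0.0190 with exact p = 0.75, where the smallest p of the design is 0.25. Line and parental allele cannot be told apart.

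Kdm5c lost a larger part of its Xi share in the first days and then levelled off. In iXist-ChrX_Cast WT its Xi share was 0.281 and 0.314 at day 2, 0.211, 0.276 and 0.266 at day 3, 0.128, 0.137 and 0.181 at day 5 and 0.144, 0.151 and 0.152 at day 7. It was 0.129 at day 15, 0.193 at day 21 and 0.166 at day 35, in the range of days 5 and 7 or just above it. Relative to the uninduced share of the KO clones, WT kept 65.1 ± 9.00% at days 2 and 3 (n = 5, Kdm6a 88.4 ± 6.4%). At the late days it kept 39.3 ± 7.73% (n = 3 days, Kdm6a 10.1%). At the late days Kdm5c ranked 11th, 12th and 16th of 399, 398 and 398 genes, so its label of an escape gene held to the end of the course.

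**Figure D2:**
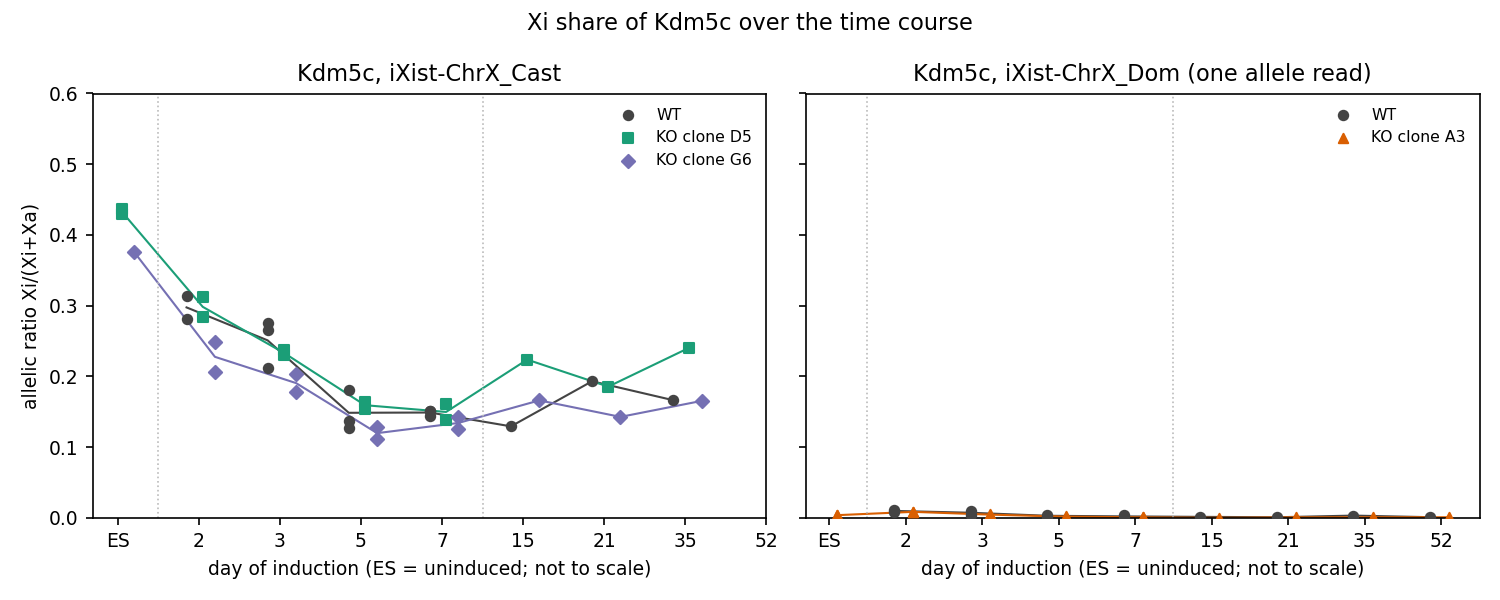
Xi share of Kdm5c (y axis, allelic ratio from 0 to 0.6) by day of induction (x axis, categories), with iXist-ChrX_Cast on the left and iXist-ChrX_Dom on the right. Points are replicates, coloured by clone, and lines join the means of each day. In iXist-ChrX_Cast the share levels off between 0.129 and 0.241 from day 15, and in iXist-ChrX_Dom it is at most 0.0114 even before induction, where nearly only 1 parental allele was read.

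The KO clones had the same shape. D5 had a share of 0.437 and 0.429 in ES, 0.284 and 0.312 at day 2, 0.237 and 0.230 at day 3, 0.154 and 0.164 at day 5 and 0.161 and 0.139 at day 7. It then had 0.224, 0.186 and 0.241 at days 15, 21 and 35. G6 ran lower, with 0.377 in ES, 0.207 and 0.249 at day 2, 0.178 and 0.203 at day 3, 0.111 and 0.129 at day 5, 0.125 and 0.143 at day 7, and 0.166, 0.143 and 0.165 at the 3 late days.

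No test separated KO from WT for Kdm5c. KO minus WT was -0.0370 (SE 0.0196, adjusted p = 0.545) at days 2 and 3, -0.0080 (SE 0.0125, adjusted p = 0.756) at days 5 and 7 and 0.0244 (SE 0.0282, adjusted p = 0.602) at the late days, in the limma fits whose called shares are given above. The 95% interval of the late difference, -0.0308 to 0.0796, overlaps that of Kdm6a, 0.0519 to 0.131. KO exceeded WT of the same day in 3 of 6 late replicates, both clones at day 15 and D5 at day 35, and the exact permutation p was 0.481. D5 exceeded G6 at the late days by 0.0586 for Kdm5c (SE 0.0131) and by 0.0427 for Kdm6a (SE 0.0118), each with an adjusted p of 0.625 in a fit that called no gene (0.0%; 29 genes had an unadjusted p below 0.05). The fall between days 2 and 3 and days 5 and 7 was called in WT (-0.121, SE 0.0257, adjusted p = 0.000429) and in KO (-0.0967, SE 0.0160, adjusted p = 1.10e-05). From there to the late days the share changed by 0.0142 in WT (SE 0.03, adjusted p = 0.887) and 0.0466 in KO (SE 0.0173, adjusted p = 0.158).

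The 2 demethylase genes changed places within the same libraries. At days 2 and 3 the Kdm5c share was below that of Kdm6a in 5 of 5 WT replicates, by 0.0961 to 0.159, and in 8 of 8 KO replicates, by 0.117 to 0.204. Kdm6a ranked 4th to 13th of 399 genes in these replicates, so nearly all genes lay below it. At days 5 and 7 the Kdm5c share was still below in 6 of 6 WT and 8 of 8 KO replicates, where Kdm6a ranked 6th to 16th of 399 genes. In WT, Kdm5c minus Kdm6a then ran from -0.164 to -0.000320, so the shares were nearly equal in 1 replicate. Relative to the uninduced share, Kdm5c was above in 2 of these 6 WT replicates. At the late days the Kdm5c share was above in 3 of 3 WT replicates, by 0.0420 to 0.158, and in 4 of 6 KO replicates, where the difference ran from -0.0300 to 0.113. Of 392 to 399 genes, Kdm5c then ranked 11th to 25th and Kdm6a 13th to 107th. From days 2 and 3 to the late days, Kdm5c minus Kdm6a changed by 0.242 in WT and 0.211 in KO, with exact two-sided permutation p-values of 0.0179 and 0.000333 (0.0250 and 0.00117 after adjustment over the 14 comparisons of this kind), the smallest that each design allows. The median gene of the list also rose against Kdm6a in WT. It stood at 0.0744 to 0.168 at days 2 and 3, where Kdm6a had 0.362 to 0.429. At the late days it stood at 0.00157 to 0.00459, where Kdm6a had 0.00819 to 0.0874. A rise against Kdm6a is thus not particular to Kdm5c, and how many genes show it was not counted. The crossing was also there when each share was divided by the uninduced share of its gene, with changes of 0.526 and 0.466. KO minus WT of the Kdm6a share exceeded that of Kdm5c by 0.0671 at the late days (exact permutation p = 0.0370, the smallest possible, 0.0617 adjusted over 5).

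By the half-time of a decay to 0, both genes ranked among the slowest of the genes fitted. An exponential decay to 0 fitted to WT days 2 to 7 and the uninduced share gave Kdm6a a half-time of 4.49 days in iXist-ChrX_Dom, the 5th slowest of 246 genes, whose median was 1.53 days. In iXist-ChrX_Cast it was 4.98 days for Kdm6a and 4.09 days for Kdm5c, the 12th and 13th slowest of 399 genes with a median of 1.31 days. With the level to which the share decays left free, Kdm6a again went to 0 (4.49 and 4.98 days), whereas Kdm5c went to a plateau of 0.0706 with a half-time of 2.85 days. Other genes were not fitted with a free level, so the half-time of 2.85 days has no rank. All half-times here are descriptions with no test.

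Eif2s3x, a subunit gene of a translation initiation factor, and Ddx3x, an RNA helicase gene, are escape genes with Y-linked relatives and served as the closest comparison. At the late days Eif2s3x kept a mean share of 0.215 in WT and 0.246 in KO of iXist-ChrX_Dom, and 0.380 and 0.364 in iXist-ChrX_Cast. In late WT it ranked 6th to 16th of 245 or 246 genes in iXist-ChrX_Dom and 5th to 8th of 398 or 399 in iXist-ChrX_Cast. In late A3 it ranked 10th to 43rd. Most genes of the lists thus lay below Eif2s3x, so a lower share is not particular to the 2 demethylase genes. Kdm6a lay below it in 7 of 7 WT replicates, by 0.238 on average (exact sign-change permutation p = 0.0156, 0.0625 adjusted over 8 comparisons), and in 10 of 10 KO replicates, by 0.168 (p = 0.00195, 0.0156 adjusted, exact). Kdm5c lay below it in 3 of 3 WT and 6 of 6 KO replicates, by 0.217 and 0.176 (exact p = 0.25 and 0.03125, each the smallest possible; 0.25 and 0.0625 adjusted).

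Ddx3x had late means of 0.0778 in WT and 0.171 in KO of iXist-ChrX_Dom, and 0.0920 and 0.107 in iXist-ChrX_Cast. Kdm5c exceeded Ddx3x in 3 of 3 WT and 6 of 6 KO replicates, by 0.0710 and 0.0802 (exact p = 0.25 and 0.03125, 0.25 and 0.0625 adjusted). Kdm6a minus Ddx3x was -0.0362 in WT and 0.0161 in KO (exact p = 0.0938 and 0.229, 0.15 and 0.25 adjusted). The late order in iXist-ChrX_Cast WT was Eif2s3x, Kdm5c, Ddx3x and Kdm6a; the ranges of the last 2 overlapped (0.0766 to 0.105 and 0.00819 to 0.0874), and those of the other neighbours did not.

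**Figure D3:**
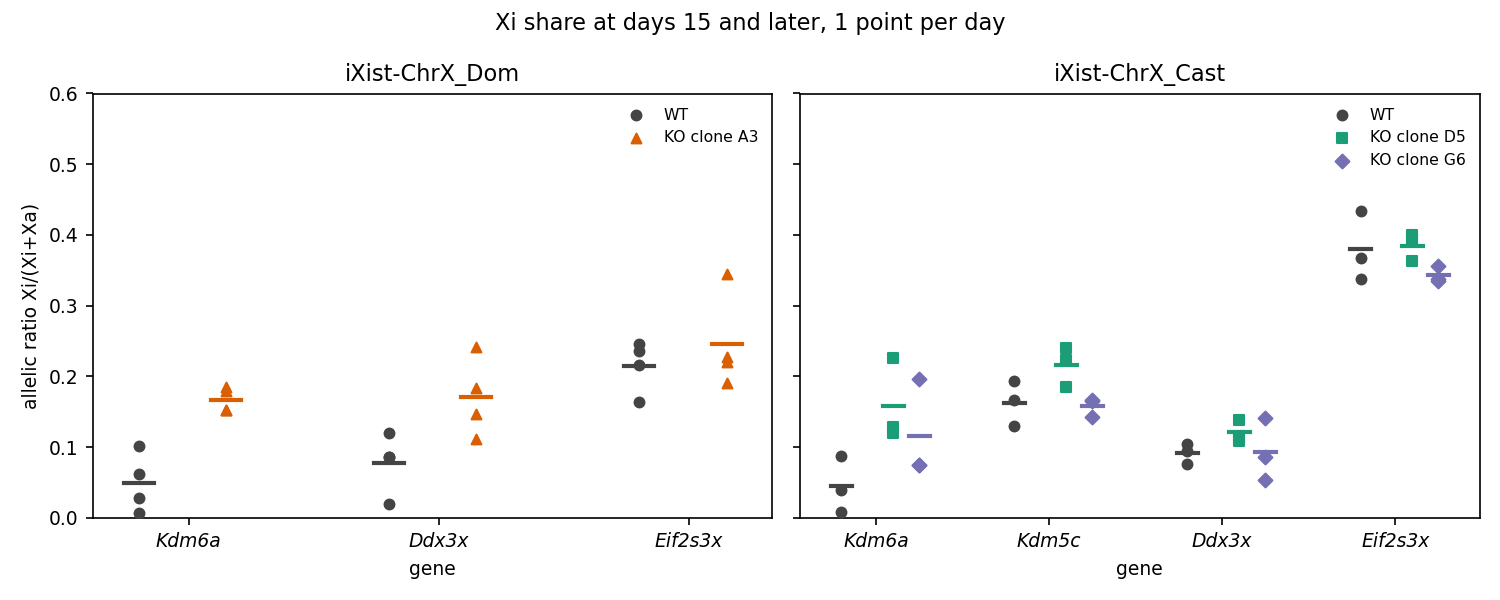
Xi share at days 15 and later (y axis, allelic ratio from 0 to 0.6) of Kdm6a, Ddx3x and Eif2s3x in iXist-ChrX_Dom (left) and of these genes and Kdm5c in iXist-ChrX_Cast (right). Each point is the single replicate of a day, coloured by clone, and bars are means. The WT points of Kdm6a reach 0.102 at most, and A3 starts at 0.152.

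The allele-assigned levels were then compared apart, since a share can fall through either allele. In A3 the Xi allele of Kdm6a went from 229 and 238 RPM in ES to 34.9, 35.8, 26.4 and 18.8 RPM at days 15, 21, 35 and 52, and the Xa allele from 201 and 205 RPM to 194, 158, 121 and 104 RPM. In the fit (edgeR quasi-likelihood test, factors of all fragments, Benjamini-Hochberg adjustment) the Xi allele fell by 2.52 on the log2 scale (SE 0.256, adjusted p = 0.00305, 29.8% of genes called) and the Xa allele moved by 0.01 (SE 0.285, adjusted p = 0.978, 30.9% called). In the iXist-ChrX_Cast KO clones the Xi allele of Kdm6a went from 172 to 243 RPM in ES to 13.4 to 67.9 RPM at the late days, a fall of 2.60 on the log2 scale (SE 0.497, adjusted p = 0.00245, 51.2% called). The Xa allele changed by -0.38 (SE 0.243, adjusted p = 0.218, 49.4% called).

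The Xi allele of Kdm5c in the same clones had 24.0 to 32.4 RPM in ES and 5.65 to 11.3 RPM at the late days. It fell by 1.40 on the log2 scale (SE 0.185, adjusted p = 0.000377), and its Xa allele, at 36.6 to 41.7 RPM in ES and 32.8 to 39.5 RPM late, changed by 0.15 (SE 0.166, adjusted p = 0.464). In late WT of iXist-ChrX_Cast the Xi allele of Kdm5c stood at 6.18, 8.65 and 7.27 RPM, against 26.2, 5.12 and 1.14 RPM for Kdm6a, at days 15, 21 and 35. Thus Xi RNA of Kdm6a went on falling through these days and that of Kdm5c did not; levels of the 2 genes are not compared here, since length and variant density enter them. With library totals alone, which moved the median of all Xa-allele values from 0.394 to -0.141 in A3 and from 0.149 to -0.133 in iXist-ChrX_Cast KO, the Xa allele of Kdm6a changed by -0.49 and -0.62 (adjusted p = 0.247 and 0.0372) and that of Kdm5c by -0.11. The scaling thus turned the sign of the Xa change of Kdm6a in A3 and of Kdm5c, and brought the decrease of the Xa allele of Kdm6a in iXist-ChrX_Cast KO past the threshold.

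Between genotypes at the late days, the Xi allele of Kdm6a was higher in KO by 2.17 on the log2 scale in iXist-ChrX_Dom (SE 0.631, 4.49-fold) and by 2.09 in iXist-ChrX_Cast (SE 0.462, 4.25-fold). Neither passed adjustment over all genes (adjusted p = 0.490 and 0.161), where the Xi-allele fits called 0.0% and 0.193% of genes (1262 genes in iXist-ChrX_Dom had an unadjusted p below 0.05). The Xa allele of Kdm6a differed by -0.24 (SE 0.121) and 0.14 (SE 0.221), and the alleles of Kdm5c in iXist-ChrX_Cast by 0.26 (Xi, SE 0.235) and 0.02 (Xa, SE 0.131), none called.

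**Figure D4:**
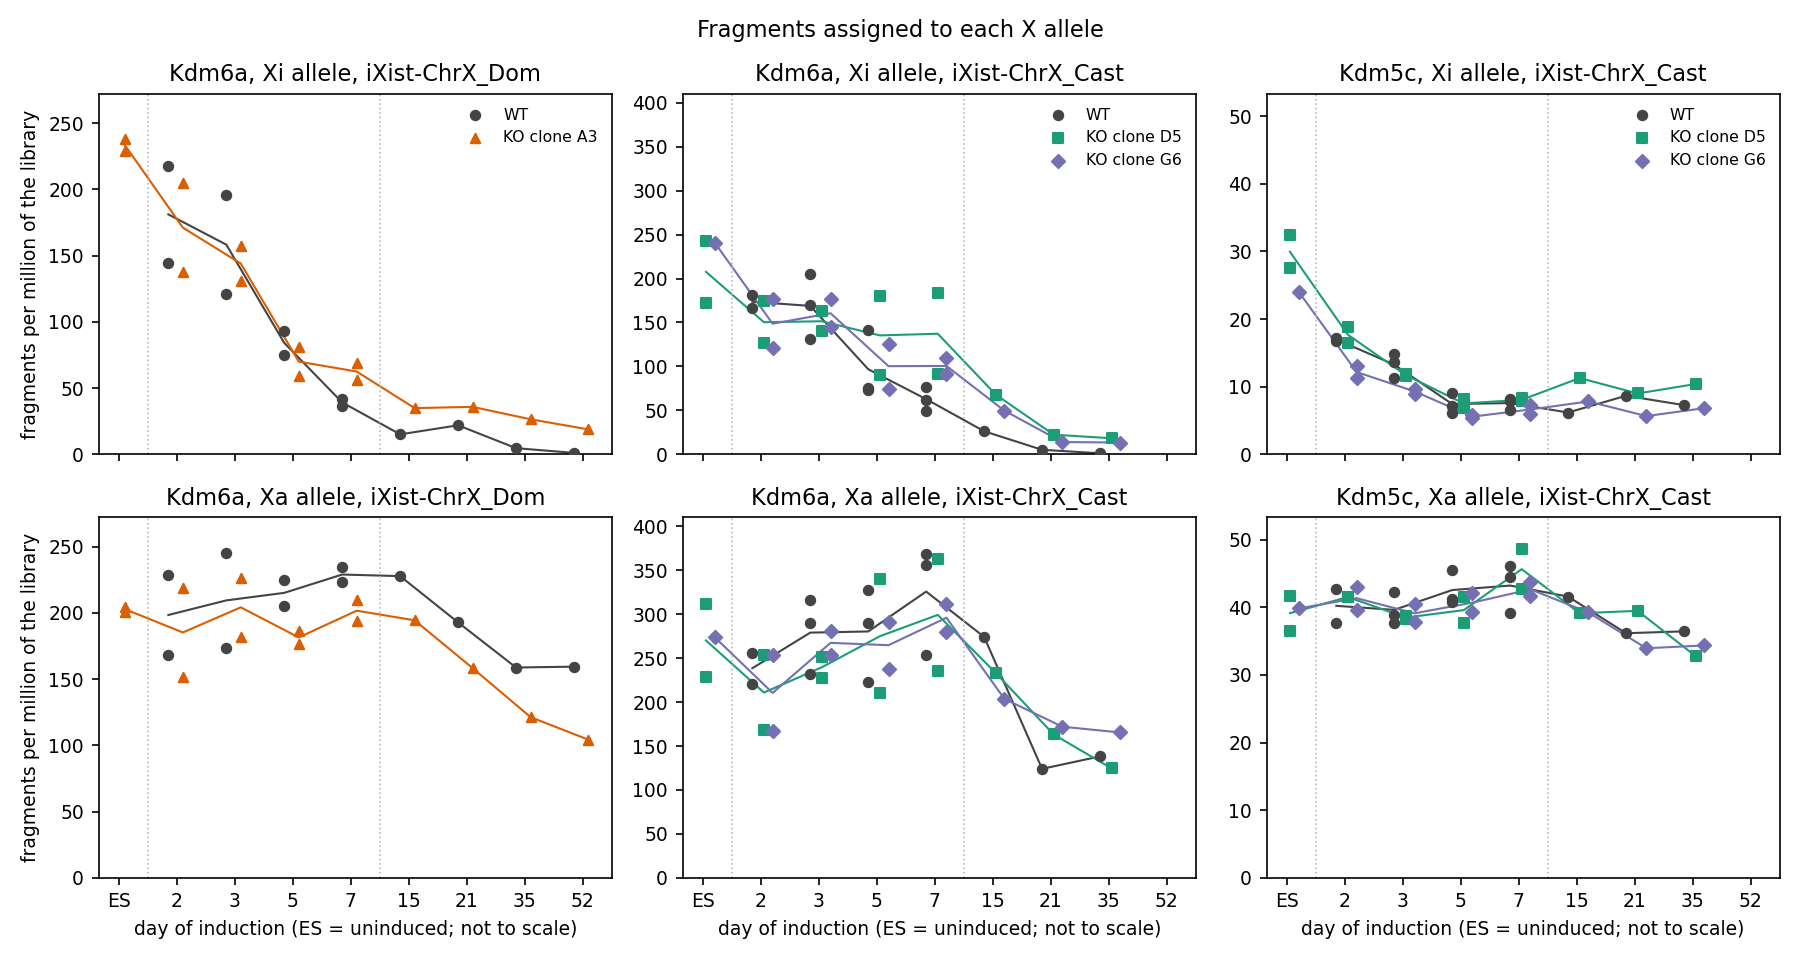
Fragments assigned to the Xi allele (top row) and the Xa allele (bottom row), in fragments-per-million of the library (RPM), by day of induction (x axis, categories), for Kdm6a in both lines and Kdm5c in iXist-ChrX_Cast. Points are replicates, coloured by clone, and lines join the means of each day; the rows of a column share a scale. The Xi allele of Kdm6a ends at 1.06 and 1.14 RPM in WT, and that of Kdm5c levels off between 5.65 and 11.3 RPM at the late days.

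Total RNA of Kdm6a, both alleles and unassigned fragments together, decreased over differentiation. In iXist-ChrX_Dom WT it was 5.24 to 7.83 RPKM (fragments-per-kb-per-million, over the length of the whole transcript unit) at days 2 and 3, and 4.22, 3.80, 2.89 and 2.85 RPKM at days 15, 21, 35 and 52. In iXist-ChrX_Cast WT it was 6.56 to 9.08 RPKM at days 2 and 3, and 5.08, 2.3 and 2.48 RPKM at days 15, 21 and 35. The late libraries lay below all early ones in both lines, as for 35.8% of 13643 genes in iXist-ChrX_Dom and 33.3% of 13531 in iXist-ChrX_Cast (genes with a mean of at least 1 RPM). The fold change was -0.67 (SE 0.204, adjusted p = 0.0223) and -0.93 (SE 0.261, adjusted p = 0.0153) on the log2 scale in edgeR fits that called 53.4% and 48.4% of genes. In KO, from ES to the late days, Kdm6a fell by 0.95 in A3 (SE 0.246, adjusted p = 0.0305, 32.7% called) and by 1.04 in the iXist-ChrX_Cast clones (SE 0.245, adjusted p = 0.00753, 50.4% called).

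Total RNA of Kdm5c lay slightly lower at the late days, and the fits gave no change. In iXist-ChrX_Dom WT it was 3.90 to 4.41 RPKM at days 2 and 3 and 3.59, 3.54, 3.27 and 3.10 RPKM at days 15, 21, 35 and 52. In iXist-ChrX_Cast WT it was 4.13 to 4.56 RPKM and then 3.57, 3.40 and 3.50 RPKM. As for Kdm6a, the late values lay below all early ones in both lines. The fitted change was 0.00 in both lines (-0.0043, SE 0.105, and -0.0018, SE 0.115, log2 scale; adjusted p = 0.976 and 0.990). This depended on the scaling: with library totals alone, which Xist also enters and which moved the median of all genes to -0.231 and -0.294, Kdm5c changed by -0.27 and -0.31 and was called lower (adjusted p = 0.0425 and 0.0485). In KO from ES to the late days Kdm5c changed by -0.21 in A3 (SE 0.170, adjusted p = 0.372) and by -0.36 in the iXist-ChrX_Cast clones (SE 0.133, adjusted p = 0.0495). The latter call was just inside the threshold, and it was lost in 6 of the 9 fits that left out a replicate and without the filter on low counts (-0.33).

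**Figure D5:**
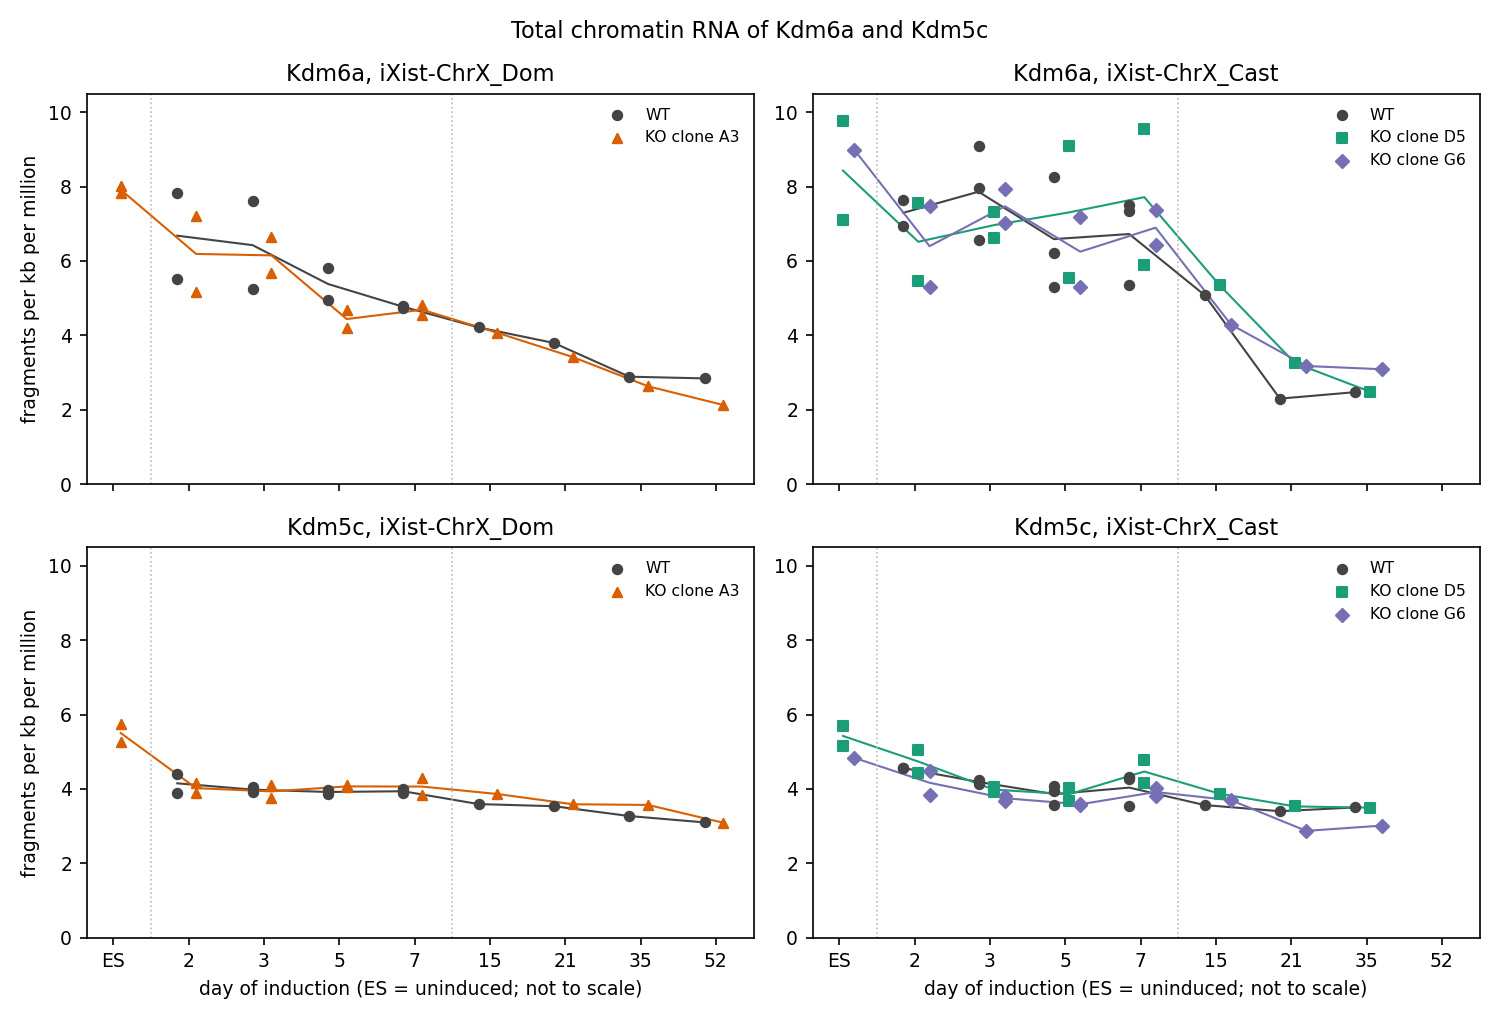
Total chromatin RNA of Kdm6a (top) and Kdm5c (bottom) in RPKM (y axis) by day of induction (x axis, categories), for iXist-ChrX_Dom (left) and iXist-ChrX_Cast (right). Points are replicates, coloured by clone, and lines join the means of each day. Kdm6a ends between 2.13 and 3.09 on the last day of each clone, and Kdm5c between 3.02 and 3.50.

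KO and WT did not separate in total RNA of either gene. At days 2 to 7, KO over WT of Kdm6a was -0.07 (SE 0.117) in iXist-ChrX_Dom and -0.03 (SE 0.113) in iXist-ChrX_Cast, and that of Kdm5c was 0.05 (SE 0.0579) and -0.05 (SE 0.0410), with adjusted p-values of 0.743 to 0.973 against 0.803% and 0.381% of genes called. At the late days Kdm6a gave -0.06 (SE 0.0896) and 0.27 (SE 0.179), and Kdm5c 0.19 (SE 0.0906) and 0.03 (SE 0.110). The adjusted p-values were 0.467 to 0.905, and edgeR called no gene in either line (0.0%), although 1622 and 1898 genes had an unadjusted p below 0.05 and DESeq2 called 112 higher and 72 lower in iXist-ChrX_Dom and 307 higher and 128 lower in iXist-ChrX_Cast.

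The neighbourhood of Kdm5c did not share its late Xi share. Of the 10 other genes that start within 250 kb of the body of either gene, 8 lie around Kdm5c and hold enough allelic fragments, while the 2 around Kdm6a, Dusp21 and 4930578C19Rik, had a median of 0 allelic fragments. In late WT of iXist-ChrX_Cast, 7 of the 8 had a mean share of at most 0.0213, against 0.163 for Kdm5c between them: Hsd17b10, Ribc1, Smc1a and Iqsec2 before it, and 2900056M20Rik, Tspyl2 and Gpr173 after it. The exception was 3010001F23Rik, which starts 89.5 kb past the end of Kdm5c, with 0.130 in WT and 0.111 in KO on a median of 36 allelic fragments per replicate. Smc1a, a cohesin subunit gene, had 0.0201 in late WT and 0.103 in late KO, on a median of 1266 fragments. In uninduced iXist-ChrX_Dom 7 of the 8 had mean shares of 0 to 0.0477 and 3010001F23Rik had 0.108, all far below equal use of the alleles.

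The genes whose Xi share ran closest to that of Kdm6a, by the mean absolute difference over all induced replicates, were Utp14a (0.0478), Suv39h1 (0.0636), Wdr44 (0.0754), Rbmx2 (0.0761) and Idh3g (0.0794) in iXist-ChrX_Dom (24 replicates, 238 genes, median gene 0.188). In iXist-ChrX_Cast they were Taf1 (0.0618), Rpgr (0.0765), Wdr44 (0.0817), Klhl13 (0.0833) and 5530601H04Rik (0.0836), over 36 replicates and 388 genes with a median of 0.215. Only Wdr44 was near Kdm6a in both lines by this measure of the first 5. Closest to Kdm5c were Ddx3x (0.0407), Ogt (0.0416), Nkap (0.0458), Igbp1 (0.0467) and Zrsr2 (0.0481), against a median of 0.140. Of these, only Ddx3x had a late WT mean (0.0920) above 0.05, compared with 0.163 for Kdm5c.

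Among related and partner genes, the change in total RNA over differentiation was mixed within each list. The counts below stand against 28.7% of all genes called higher and 24.7% lower in iXist-ChrX_Dom WT and 25.6% and 22.8% in iXist-ChrX_Cast WT, or 20.2% and 35.9%, and 17.4% and 33.5%, with library totals alone. Kdm6b, the autosomal relative of Kdm6a that removes the same mark, rose in WT by 1.11 and 1.01 on the log2 scale between days 2 and 3 and the late days (adjusted p = 0.00187 and 0.00141, edgeR), while Kdm6a fell. In KO from ES to the late days it rose by 2.28 and 1.59. The Y-linked Uty and Kdm5d reached at most 42 and 3 fragments in any library. None of the 3 KDM5 genes tested, Kdm5c included, was called in WT, whereas with library totals alone 2 of the 3, Kdm5c and Kdm5b, were called lower in each line. Kdm5b fell by 1.09 in the iXist-ChrX_Cast KO clones.

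Of the 9 MLL3/MLL4 complex genes, in which the Kdm6a protein works, 1 rose and 5 fell in iXist-ChrX_Dom WT, and 1 rose and 4 fell in iXist-ChrX_Cast WT (1 and 6 in each line with library totals alone), with list medians of -0.34 and -0.46 beside 0.04 and 0.02 over all genes tested. Ncoa6, a nuclear receptor coactivator, rose by 0.95 and 1.10. The core subunits Dpy30 (-1.72 and -1.76), Wdr5 (-1.11 and -1.20) and Ash2l (-1.11 and -0.74) fell. Of 5 PRC2 genes, whose products place the mark that Kdm6a removes, 1 rose and 3 fell in iXist-ChrX_Dom WT and none rose and 2 fell in iXist-ChrX_Cast WT (none and 3 in each line with library totals alone). Suz12 fell by 1.22 and 1.06 and Jarid2 by 1.13 and 1.28. The gene that rose was the catalytic subunit Ezh2 (0.26, adjusted p = 0.0402), and that call was lost with library totals alone.

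Of 9 genes for partners of Kdm5c, 1 rose and 3 fell in iXist-ChrX_Dom WT and 1 rose and 4 fell in iXist-ChrX_Cast WT, or 4 of 9 and 5 of 9 called, where 53.4% and 48.4% of all genes were. With library totals alone it was 1 and 4 in the former and 0 and 6 in the latter. The repressor Rest fell by 0.70 and 0.95, Pcgf6 by 1.03 and 1.17, and the deacetylase gene Hdac2 rose by 0.92 and 0.51, the latter call being lost with library totals alone. Of the 8 other escape genes, 2 rose and 5 fell in each line (1 and 5 in iXist-ChrX_Dom and 1 and 6 in iXist-ChrX_Cast with library totals alone), with Utp14a down by 1.63 and 2.09 and Car5b up by 1.80 and 2.00. Between KO and WT, 1 gene of these lists was called in the fits of total RNA, Rbbp5 of the MLL3/MLL4 list, lower by 0.23 in A3 at days 2 to 7 (adjusted p = 0.0483), in a fit that called 0.803% of all genes. With library totals alone Kdm5b was also called lower there, in a fit that called 0.265% of genes higher and 0.57% lower. These lists were put together with earlier results of the data known and are described by counts.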

How the data were processed

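Chromatin RNA of 72 libraries was sequenced by the authors as strand-specific paired-end reads. They aligned the reads to mm10 with variant positions masked, split them by allele with SNPsplit and counted fragments over whole transcripts, introns included; the submitters' processing notes name Bowtie2 2.3.2, STAR 2.4.2a and featureCounts. The deposited count tables hold raw fragments per gene, in total and for each parental allele. The deposited allelic ratio tables hold a fraction per gene and library, Xi/(Xi+Xa), for the gene list of each line. The deposited ratio table of the iXist-ChrX-Dom line held 26 columns of per-sample values under the names of iXist-ChrX-Cast libraries, and these were not used.

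From these files, R1 and R2 libraries of 1 replicate were merged (mean share, summed counts), which gave 65 replicates. The study describes replicates up to day 7 as repeat time course experiments, and for D5 and G6 at days 3, 5 and 7 its number of experiments is met only if R1 and R2 count apart, which was run as an alternative. Up to day 7, p-values measure the spread between these experiments of a few clones. At the late days, with 1 replicate per clone and day, they measure the spread from day to day and, in iXist-ChrX_Cast KO, between D5 and G6. No repeat experiment of a late day enters them. Xi shares were fitted with limma 3.58.1 (empirical Bayes with trend; genes with a share in every replicate of the fit), genotype and day as factors, and counts with edgeR 4.0.16 (quasi-likelihood, TMM factors, filterByExpr; allele counts used the factors of all fragments) in R 4.3.3. Alternatives used DESeq2 1.42.0, allelic counts, library totals, other filters, D5 or G6 alone, the replicate block and leaving out each replicate. Benjamini-Hochberg adjustment ran over all genes tested, with a threshold of 0.05. Permutation tests were run with numpy 2.4.6, exact where every arrangement could be listed and otherwise with 100000 resamples. Fisher's exact tests and decay fits used scipy 1.17.1. Figures were drawn with matplotlib 3.10.9. The fits were tested on simulated data.

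Behind each Xi share stood 2924 to 15654 allele-assigned fragments of Kdm6a per library, with 95% Wilson intervals of at most 0.0154 to either side, and 846 to 1768 of Kdm5c in iXist-ChrX_Cast, with at most 0.0333. Intervals and floors cover counting error only. Groups came from the sample labels. The genes named are the 2 members, Eif2s3x and Ddx3x for comparison, the neighbours within 250 kb, the 5 genes with the most similar course, and members of the lists of relatives, partners and other escape genes that were called. The members, lists and tests were chosen with earlier results of these data known.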

Additional observations from a re-analysis of the deposited data

Results flagged for a closer look

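The difference between KO and WT in the Xi share of Kdm6a was not the same at all times. From days 2 and 3 to day 15 and later it grew by 0.121 in iXist-ChrX_Dom (adjusted p = 0.0383) and by 0.0915 in iXist-ChrX_Cast (adjusted p = 0.00751), by the interaction term of the limma fits. Kdm5c and Kdm6a also differed from each other in a way that changed with time: Kdm5c minus Kdm6a rose between the same periods by 0.242 in WT of iXist-ChrX_Cast (exact permutation p = 0.0179) and by 0.211 in its KO clones (exact permutation p = 0.000333). The median gene of the list rose against Kdm6a in WT as well, so such a rise is not particular to Kdm5c. No cause of either pattern was tested.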

How the results depend on the processing

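Of 925 alternative values for 63 results, 814 kept their direction and their side of the threshold; the cause of the other changes was not tested. Depth limits Kdm5c more than Kdm6a, the late days have 1 replicate per clone, and uninduced WT was not analysed here. For the late KO minus WT share of Kdm6a, the test of allelic counts gave log2 odds of 2.48 in iXist-ChrX_Dom (adjusted p = 0.00150), and in iXist-ChrX_Cast the call was lost with D5 alone (0.113), G6 alone (0.0702), missing shares kept (0.0915, adjusted p = 0.0509; chosen after seeing the data) or all X-linked genes (0.0915, adjusted p = 0.0524). With days 5 and 7 as the early period the changes of the difference were 0.0742 and 0.0122 and not called. With G6 alone Kdm5c turned to -0.00490 late and Kdm6a to -0.00529 at days 2 and 3; with D5 alone, at days 5 and 7, Kdm5c turned to 0.00577 and Kdm6a was called (0.108, adjusted p = 0.0498). The arcsine scale called the late fall of Kdm6a in WT (-0.268 and -0.272) and the late rise of Kdm5c in KO (0.0622). The late share fits called 8 and 28 genes, against 65 and 104 with allelic counts and 25 and 88 with arcsine. Library totals gave Kdm5c -0.27 and -0.31 (late over days 2 and 3, called), -0.64 (late over ES in A3, called), -0.0369 (late KO over WT) and, for the Xa allele in iXist-ChrX_Cast, -0.0614 (KO over WT) and -0.11 (late over ES); the Xa allele of Kdm6a gave -0.49 and -0.62 (the latter called). Without a low-count filter Kdm5c late over ES in iXist-ChrX_Cast was -0.33 and not called. The line difference turned to -0.0589 after division by the uninduced share, and half-times were 3.30 and 3.69 days for Kdm6a without the uninduced point and 2.85 days for Kdm5c with a free plateau.

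Replicate numbers did not pair WT with KO at every day: correlations of same-numbered deviations were -0.727 to -0.446 in iXist-ChrX_Dom, and in iXist-ChrX_Cast -0.293 to 0.683 for D5 and -0.261 to 0.794 for G6 against WT, below 0 at days 3 and 5 only. Same-numbered replicates of D5 and G6 did go together at all 4 days (0.394 to 0.809). With the replicate block in iXist-ChrX_Cast, Kdm5c turned to 0.000850 at days 5 and 7 and Kdm6a to -0.00386 at days 2 and 3, and no call on either gene changed. A crossed pairing in iXist-ChrX_Dom, chosen after seeing the data, called 259 genes higher and 281 lower in total RNA at days 2 to 7, against 58 and 66 without a block.

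Leaving out 1 replicate at a time, the Kdm6a share gave ranges of -0.0112 to 0.00434 and -0.00386 to 0.00411 at days 2 and 3, 0.0755 to 0.108 late in iXist-ChrX_Cast, and 0.110 to 0.133 and 0.0755 to 0.108 for the change of the difference. In iXist-ChrX_Cast WT the late change from days 5 and 7 ran from -0.000870 to 0.0310 for Kdm5c and from -0.183 to -0.143 for Kdm6a (called only without replicate 1 of day 7, adjusted p = 0.0442). Total RNA, late over days 2 and 3, ran from -0.0802 to 0.0539 and -0.0435 to 0.0213 for Kdm5c, and from -0.83 to -0.55 (call lost without day 35 or replicate 1 of day 2 or 3) and -1.34 to -0.75 (lost without day 21) for Kdm6a. Late over ES, Kdm6a ran from -1.10 to -0.87 in A3 (lost without either ES replicate, day 21 or day 35) and from -1.29 to -0.91 (lost without G6 ES), and Kdm5c from -0.52 to -0.29 (lost without 6 of 9 replicates: D5 ES 1, D5 and G6 of days 21 and 35, and G6 ES). The Xi allele of Kdm6a in A3 ran from -2.69 to -2.43 (lost without ES replicate 2). Xa alleles late over ES ran from -0.27 to 0.14 and -0.0514 to 0.25 for Kdm5c and from -0.15 to 0.0832 for Kdm6a in A3. KO over WT in iXist-ChrX_Cast ran from -0.0677 to 0.00832 for Kdm6a at days 2 to 7, and late for Kdm5c from -0.0211 to 0.12 in total and -0.0300 to 0.0689 on the Xa. The line difference ran from 0.0228 to 0.0353 at days 2 to 7 (p above 0.05 in 14 of 19 cases) and from -0.00259 to 0.0412 late. Kdm5c minus Kdm6a over all induced WT replicates, -0.0440 (permutation p = 0.136), ran from -0.0596 to -0.0348 and passed 0.05 without day 21 or day 35.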
